A study of Mus musculus with 26 samples.

Results

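The 10 genes described here encode enzymes that make, convert or use nicotinamide adenine dinucleotide (NAD) in the liver. They were chosen by name as the salvage enzyme Nampt, the riboside kinase Nmrk1, the adenylyl transferase genes Nmnat1 and Nmnat3, the de novo enzymes Tdo2, Qprt and Nadsyn1, and the NAD-using or NAD-linked genes Nadk, Nnmt and Sirt1. All 10 were found among the 36883 gene names of the deposited count table. RNA came from livers of 26 Eu-MYC mice, in which a MYC transgene is under the immunoglobulin heavy chain enhancer and B-lineage lymphomas can arise, so every group carried the transgene and no group without it was studied here. The mice had been housed for 8 weeks under lighting that mimicked chronic jet lag (CJL) or under 12 h of light and 12 h of dark (12:12). There were 8 jet lag females, 8 females under 12:12, 4 jet lag males and 6 males under 12:12. The sources used here do not give the jet lag schedule, the age and health of the mice, the hour at which livers were collected or any sequencing batch.

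NAD is made in cells by several routes that meet at a shared adenylation step. NAMPT, the rate-limiting enzyme of salvage, turns nicotinamide into nicotinamide mononucleotide, and NMRK1 makes the same product from nicotinamide riboside. The liver can also build NAD from tryptophan, and in mammalian cells the clock proteins CLOCK and BMAL1 are known to drive Nampt, which links NAD supply to the NAD-dependent deacetylase SIRT1.

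Library totals ran from 45364557 to 50242019 counts, so that 3 counts stood for 0.0597 to 0.0661 CPM (counts per 1000000 counts of a library), a floor that covers counting error only. The liver label fitted its markers, since albumin (Alb) took 10% to 22.1% of the counts and a list of 9 hepatocyte genes with albumin took 14.1% to 25.6%. Cd79a, a B cell receptor component, was at 14.5 to 144 CPM in 8 libraries and at 1.28 to 2.95 CPM in the other 18. The 8 libraries above the limit of 8 CPM were 3 jet lag females, 2 females under 12:12, 1 jet lag male and 2 males under 12:12. They stand apart from the rest, so the lighting and sex comparisons were also fitted on the other 18 libraries alone. In bulk liver RNA, fewer cells of a type and less RNA per cell cannot be told apart.

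Per kilobase of merged exon, the mean level over the 26 libraries was highest for Tdo2, at 253 CPM per kb. Nnmt, Qprt and Nadk followed at 41.7, 41.0 and 35.5 CPM per kb, with coefficients of variation (CV) over libraries of 84.7%, 24.8% and 16.04%, so their order lay within the spread. Nampt stood at 15.1 CPM per kb and Nadsyn1 at 7.99 CPM per kb. The lowest levels were 3.64 CPM per kb for Nmrk1, 2.94 CPM per kb for Nmnat1, 1.52 CPM per kb for Sirt1 and 0.903 CPM per kb for Nmnat3. Nmrk1 and Nmnat1 had CVs of 35.8% and 20.9% over the pooled libraries, and their order depended on the lighting. Under 12:12 their means were 4.55 and 3.12 CPM per kb, and under jet lag 2.58 and 2.73 CPM per kb.

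Nampt lies on the plus strand at chr12:32819545-32853349 and Nmrk1 on the plus strand at chr19:18631950-18652428 (GENCODE vM21, GRCm38, the assembly of mm10). The long noncoding gene Gdap10 lies inside the span of Nampt on the same strand and shares 0 exon bases with it. Sirt1, on the minus strand at chr10:63319005-63381704, shares 65 exon bases with the antisense gene Gm16145. The strand setting of the authors' counting is not given in the sources used here, so reads on those bases cannot be assigned to either gene. RefSeq promoters of the GRCm38.p6 build, running from 250 bases before to 50 bases after a transcription start, were found for 9 of the 10 genes in 11 windows. The windows of Nampt (chr12:32820085-32820384, plus strand) and Nmrk1 (chr19:18631766-18632065, plus strand) are printed because these genes fell under jet lag, and that of Sirt1 (chr10:63338986-63339285, minus strand) because it holds 2 E-boxes. Capitals mark any match, on either strand, to the E-box CACGTG, its variant CACGTT, the nuclear receptor element AGGTCA or the D-box TTATGNAA.
Nampt promoter: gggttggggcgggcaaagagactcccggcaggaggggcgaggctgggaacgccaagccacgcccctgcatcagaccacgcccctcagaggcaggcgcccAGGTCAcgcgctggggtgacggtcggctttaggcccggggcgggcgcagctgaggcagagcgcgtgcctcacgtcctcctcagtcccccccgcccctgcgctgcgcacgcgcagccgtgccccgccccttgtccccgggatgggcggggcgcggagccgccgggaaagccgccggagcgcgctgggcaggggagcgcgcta
Nmrk1 promoter: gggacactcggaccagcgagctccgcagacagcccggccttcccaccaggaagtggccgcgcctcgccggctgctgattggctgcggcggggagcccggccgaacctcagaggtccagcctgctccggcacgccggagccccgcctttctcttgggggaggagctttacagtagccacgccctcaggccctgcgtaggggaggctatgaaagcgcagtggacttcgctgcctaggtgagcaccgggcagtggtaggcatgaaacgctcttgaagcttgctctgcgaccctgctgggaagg
Sirt1 promoter: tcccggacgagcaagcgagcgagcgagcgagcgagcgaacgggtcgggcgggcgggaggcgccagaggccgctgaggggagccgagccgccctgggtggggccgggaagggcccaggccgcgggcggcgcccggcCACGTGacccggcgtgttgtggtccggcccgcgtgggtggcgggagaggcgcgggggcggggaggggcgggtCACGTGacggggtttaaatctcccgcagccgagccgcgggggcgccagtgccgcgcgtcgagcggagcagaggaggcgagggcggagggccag

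In these windows Nampt held a single AGGTCA, 151 bases before its start, and no CACGTG. Nmrk1 held none of the 4 motifs. Sirt1 held CACGTG at 115 and 43 bases before its start. Among the other genes with a window, the second start of Nadk held a CACGTG 40 bases upstream, so 2 of 9 genes had an E-box. Of 32851 mouse promoters of this length, 7.15% held a CACGTG, 0.594% held at least 2, 4.68% held a CACGTT, 16.3% held an AGGTCA and 3.38% held a D-box. CACGTG is its own reverse complement, so each site was counted once, and a match or its absence in this window is only a description of the letters.

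Jet lag lighting against 12:12 lighting was the main comparison of the study. Over both sexes the salvage and riboside genes fell under jet lag, while the shared, de novo and NAD-using genes did not pass the test. Nampt ran from 34.9 to 75.6 CPM (median 60.5) in the 8 jet lag females, against 75.9 to 103 CPM (median 83.7) in the 8 females under 12:12. In the 4 jet lag males Nampt was at 39.3, 55.9, 25.9 and 60.8 CPM, against 80.0 to 154 CPM (median 108) in the 6 males under 12:12. Every one of the 12 jet lag libraries was thus below every one of the 14 libraries under 12:12. Of 16892 genes tested, Nampt was the only one for which this held in that direction (0.00592%), and 0 genes did so in the other direction. The gap was thin, with 75.6 CPM in jet lag female 8 and 75.9 CPM in 12:12 female 2. On CPM scaled by TMM, a setting added after the data were seen, 0 genes were free of overlap: the highest jet lag library was at 75.3 and the lowest 12:12 library, female 7, at 72.4, with 2 pairs of libraries out of order.

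**Figure D1:**
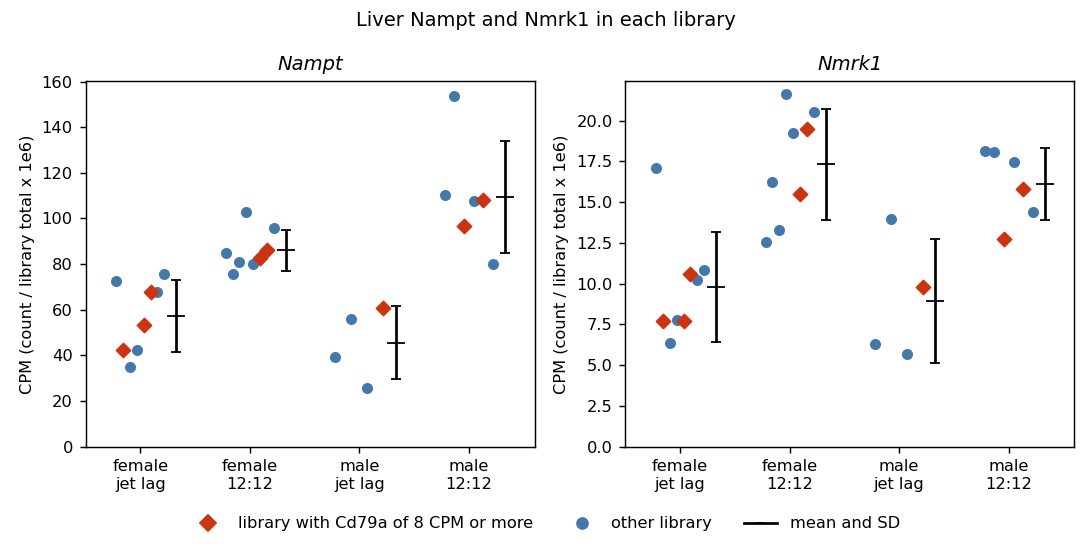
Nampt (left) and Nmrk1 (right) in CPM for each library, by sex and lighting, with jet lag left of 12:12; diamonds are libraries with Cd79a of 8 CPM or more, and bars are the mean and SD. All Nampt points of jet lag livers lie at or below 75.6 CPM, and jet lag female 1 stands apart in Nmrk1 at 17.1 CPM.

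Nmrk1 ran from 6.33 to 17.1 CPM (median 9.01) in jet lag females, against 12.6 to 21.6 CPM (median 17.7) in females under 12:12. It was at 6.32, 13.95, 5.66 and 9.80 CPM in the 4 jet lag males, against 12.7 to 18.1 CPM (median 16.7) in the 6 males under 12:12. All 12 jet lag libraries were below the 12:12 median of their own sex and 10 of 12 below its lowest library. The exceptions were jet lag female 1, at 17.1 CPM, and jet lag male 6, at 13.95 CPM.

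With sex in the model, Nampt changed by -0.87 on the log2 scale (SE 0.15, edgeR adjusted p = 0.00339) and Nmrk1 by -0.85 (SE 0.15, edgeR adjusted p = 0.00477). These 2 of 10 genes fell and 0 rose, where 0.781% of all genes tested passed in either direction and 0.337% fell. Both calls held when any single library was left out, with adjusted p from 0.000908 to 0.0103 for Nampt and from 0.0015 to 0.0137 for Nmrk1 in edgeR. The authors' deposited table, which gives 12:12 over jet lag and so has the opposite sign, lists 0.90 for Nampt (adjusted p = 5.0e-06) and 0.85 for Nmrk1 (adjusted p = 3.06e-05), and in the authors' deposited table none of the other 8 genes was under an adjusted p of 0.05.

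Nadk, the kinase that turns NAD into NADP, had the smallest p of the other 8 genes, 0.0491 before adjustment, with a log2 fold change of -0.20 (SE 0.10, edgeR adjusted p = 0.62). It ran from 92.7 to 162 CPM (median 141) in jet lag females, against 131 to 175 CPM (median 150.0) in females under 12:12. In males it was at 121, 118, 97.5 and 88.4 CPM under jet lag, against 114 to 141 CPM (median 124) under 12:12. The groups overlapped in both sexes.

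The adenylation genes showed small differences. Nmnat1, the nuclear enzyme, averaged 8.30 ± 1.60 CPM under jet lag (SD, n = 12) and 9.49 ± 1.95 CPM under 12:12 (SD, n = 14), a log2 fold change of -0.20 (SE 0.14). Nmnat3, the mitochondrial enzyme, averaged 4.44 ± 1.24 CPM under jet lag and 4.59 ± 1.33 CPM under 12:12, a log2 fold change of -0.10 (SE 0.13). Neither passed, with edgeR adjusted p of 0.907 for Nmnat1 and 0.999 for Nmnat3.

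In the de novo route, Tdo2, which opens the ring of tryptophan, averaged 895 ± 242 CPM under jet lag and 1057 ± 291 CPM under 12:12, with a log2 fold change of -0.19 (SE 0.13). Qprt, which turns quinolinate into nicotinic acid mononucleotide, averaged 113 ± 31.2 CPM under jet lag and 104 ± 23.0 CPM under 12:12, with a log2 fold change of 0.11 (SE 0.16). Nadsyn1, the glutamine-dependent synthetase of the last step, averaged 25.7 ± 4.34 CPM under jet lag and 27.0 ± 2.74 CPM under 12:12, with a log2 fold change of -0.08 (SE 0.10). The groups overlapped for these 3 genes and none passed the edgeR test, with adjusted p of 0.886 for Tdo2, 0.999 for Qprt and 0.999 for Nadsyn1.

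Nnmt, which methylates nicotinamide and so removes it from salvage, averaged 54.3 ± 18.4 CPM under jet lag and 75.6 ± 73.8 CPM under 12:12, a log2 fold change of -0.50 (SE 0.29, edgeR adjusted p = 0.774). One 12:12 library, female 6, held 321 CPM, and without it the log2 fold change was -0.14 (SE 0.21, edgeR adjusted p = 0.86). Sirt1 averaged 8.06 ± 2.73 CPM under jet lag and 8.11 ± 1.38 CPM under 12:12, a log2 fold change of -0.05 (SE 0.12, edgeR adjusted p = 0.999). Over the 10 genes the median log2 fold change was -0.20, beside 0.02 over all genes tested.

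**Figure D2:**
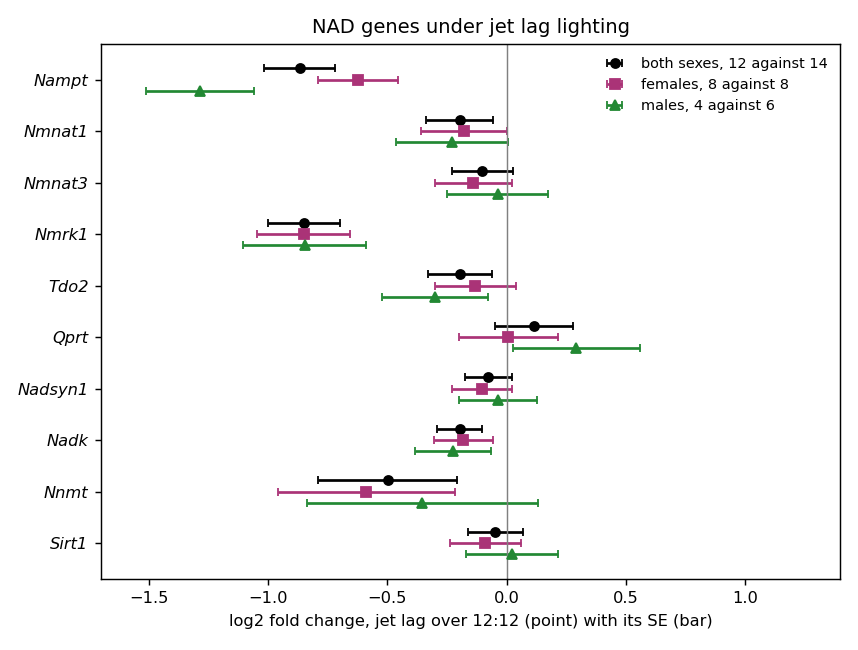
Log2 fold change of jet lag over 12:12 for each of the 10 genes, with its SE as a bar, for both sexes (circles, 12 against 14 libraries), females (squares, 8 against 8) and males (triangles, 4 against 6). Nampt and Nmrk1 lie farthest left, at -0.87 and -0.85 over both sexes.

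The lighting result was next read within the Cd79a classes. Among the 8 libraries with Cd79a of 8 CPM or more, Nampt was at 42.4, 53.5, 67.8 and 60.8 CPM in the 4 jet lag livers, against 82.8, 86.2, 96.7 and 108 CPM in the 4 livers under 12:12. In the same libraries Nmrk1 was at 7.73, 7.74, 10.6 and 9.80 CPM under jet lag, against 15.5, 19.5, 12.7 and 15.8 CPM under 12:12. Neither gene overlapped between the lightings there, as was the case for 0.551% of all genes in that direction. Among the other 18 libraries Nampt ran from 25.9 to 75.6 CPM (median 49.0) in 8 jet lag livers, against 75.9 to 154 CPM (median 90.3) in 10 livers under 12:12, again without overlap (0.0592% of genes in that direction). Fitted on these 18 libraries alone, Nampt changed by -0.95 (SE 0.19, edgeR adjusted p = 0.0116) and Nmrk1 by -0.86 (SE 0.19, edgeR adjusted p = 0.0202), where 2.32% of genes passed. None of the other 8 genes passed in that fit. Qprt there ran from 89.6 to 161 CPM (median 124) in 8 jet lag livers, against 88.1 to 122 CPM (median 106) in 10 livers under 12:12. Of the jet lag livers 5 of 8 were above the highest liver under 12:12, and the log2 fold change was 0.21 (SE 0.08, unadjusted p = 0.018, edgeR adjusted p = 0.23). Tdo2 had -0.26 (SE 0.09, unadjusted p = 0.00877, edgeR adjusted p = 0.158) and Nadk -0.16 (SE 0.07, unadjusted p = 0.0309, edgeR adjusted p = 0.3). Nmnat1 had -0.20 (SE 0.10), Nmnat3 0.00867 (SE 0.12), Nadsyn1 -0.04 (SE 0.08), Nnmt -0.20 (SE 0.22) and Sirt1 -0.19 (SE 0.12). In the fit on all 26 libraries no gene of the marker lists passed the edgeR test for lighting in either direction. That is 0 of 11 tested B-lineage, 0 of 8 T and NK cell and 0 of 6 Kupffer cell and macrophage genes. Likewise 0 of 5 neutrophil, 0 of 5 cholangiocyte and 0 of 9 hepatocyte genes passed there. At an unadjusted p under 0.05 there was 1 cholangiocyte gene and 1 hepatocyte gene, both higher, and 0 of the other 4 lists. All 5 tested neutrophil genes had positive values under jet lag (median log2 fold change 1.37), as had all 5 cholangiocyte genes (median 0.19). Values were positive for 5 of 11 B-lineage, 4 of 8 T and NK cell, 1 of 6 Kupffer cell and macrophage and 5 of 9 hepatocyte genes. On the 18 libraries alone 3 neutrophil genes were tested and 0 were positive. The part of these cells in the lighting values was not tested.

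Within each sex fewer libraries entered the comparison. In females 0 of 10 genes passed in edgeR, where 0 of all genes passed (0%) and 772 genes had an unadjusted p under 0.05. Nampt in females changed by -0.62 (SE 0.17, unadjusted p = 0.000986, edgeR adjusted p = 0.244) and Nmrk1 by -0.85 (SE 0.19, unadjusted p = 0.000184, edgeR adjusted p = 0.158). With DESeq2, which passed 0.331% of genes in females, Nmrk1 reached an adjusted p of 0.0157, and limma-voom passed 0 genes. In males Nampt fell by 1.29 on the log2 scale (SE 0.23, edgeR adjusted p = 0.0476), and it was 1 of 2 genes that passed (0.0118%). Nmrk1 in males changed by -0.85 (SE 0.26, edgeR adjusted p = 0.27). Without the libraries high in Cd79a, Nampt in males changed by -1.49 (SE 0.27, edgeR adjusted p = 0.00985), where 1.33% of genes passed, and Nmrk1 by -0.97 (SE 0.32, edgeR adjusted p = 0.141). In females without those libraries Nampt changed by -0.63 (SE 0.21, edgeR adjusted p = 0.426) and Nmrk1 by -0.79 (SE 0.25, edgeR adjusted p = 0.378), where 0.0791% of genes passed. The male call for Nampt was near the threshold and was lost in 19 of 26 fits that left out a library, with adjusted p from 0.0105 to 0.272. It held without 12:12 female 6, jet lag females 1, 3 and 8, 12:12 male 3, and jet lag males 6 and 8.

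The difference between the sexes in the jet lag response was tested as an interaction, and 0 of 10 genes passed in edgeR (0% of all genes, 902 with an unadjusted p under 0.05, and 0 genes with DESeq2). For Nampt the log2 change in females exceeded that in males by 0.66 (SE 0.28, unadjusted p = 0.0238, edgeR adjusted p = 0.814), and by 0.87 (SE 0.34, edgeR adjusted p = 0.524) without the libraries high in Cd79a. For Nmrk1 the log2 changes in females and males were -0.85 and -0.85, with a difference of -0.00 (SE 0.32, edgeR adjusted p = 1.0).

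Of 34 other NAD genes listed, 33 were found in the count table and 30 were tested. Under jet lag 0 rose and 0 fell over both sexes in edgeR, and 4 of the 30 had an unadjusted p under 0.05. Pnp, the phosphorylase that can split nicotinamide riboside, had a log2 fold change of 0.40 (SE 0.15, edgeR adjusted p = 0.329). Nt5e, a cell surface nucleotidase that can degrade nicotinamide mononucleotide, had 0.76 (SE 0.28, edgeR adjusted p = 0.347). Nmnat2, the cytosolic adenylyltransferase, had -0.87 (SE 0.34, edgeR adjusted p = 0.402), and Slc25a51, a mitochondrial NAD carrier, had -0.35 (SE 0.14, edgeR adjusted p = 0.43). Nmnat2 was low, at 0 to 1.13 CPM over the 26 libraries. Its value was -0.31 (SE 0.36) in females and -2.04 (SE 0.53, edgeR adjusted p = 0.178) in males, with an interaction of 1.73 (SE 0.63, edgeR adjusted p = 0.814). Without the 8 libraries with Cd79a of 8 CPM or more, 2 of 30 rose and 0 fell, where 2.32% of all genes passed. Pnp then averaged 99.1 ± 21.3 CPM under jet lag (SD, n = 8) and 67.3 ± 14.7 CPM under 12:12 (SD, n = 10), a log2 fold change of 0.54 (SE 0.12, edgeR adjusted p = 0.0228). Nt5e averaged 33.5 ± 25.8 CPM under jet lag and 17.8 ± 14.7 CPM under 12:12, with 0.76 (SE 0.17, edgeR adjusted p = 0.0175). Over all libraries Nt5e was higher in females than in males (log2 fold change 2.65, SE 0.33). Its averages and SDs here pool the sexes and so hold that difference, while the fitted value has sex in the model. Pnp has a near-identical neighbour in mouse, Pnp2, and how reads were split between them is not given in the sources used here.

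Nampt and Nmrk1 also moved together within groups. On log2 CPM (prior count 2) from which each group's mean was taken, the correlation between them over 26 libraries was r = 0.78 and rho = 0.77, with permutation p of 5e-05 and 2e-05 and Benjamini-Hochberg adjusted p of 0.000455 and 0.00026 over the 13 relations computed for Nampt. Without the 2 libraries farthest from the Nampt median, jet lag female 3 and 12:12 male 2, r was 0.77. Over the 12 jet lag libraries alone r was 0.84 (permutation p = 0.00083, adjusted p = 0.00838), and over the 14 libraries under 12:12 it was 0.61 (permutation p = 0.0237, adjusted p = 0.154). Over the 18 libraries with low Cd79a r was 0.78 (permutation p = 0.00143, adjusted p = 0.00929). The points share library depth and scaling.

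**Figure D3:**
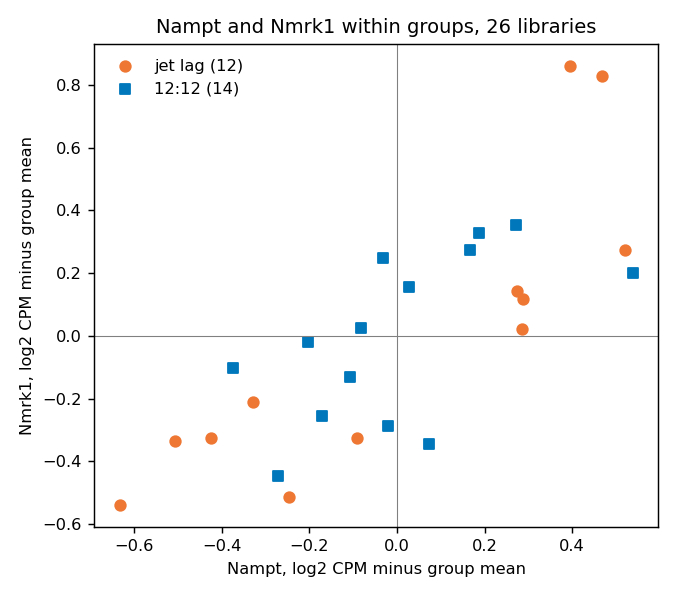
Nmrk1 against Nampt, each as log2 CPM minus the mean of its sex and lighting group, for 12 jet lag libraries (circles) and 14 libraries under 12:12 (squares). Libraries high in Nampt for their group were also high in Nmrk1, with r = 0.78 over all 26.

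None of the other 8 genes passed for a relation with Nampt. The core clock gene Per2 did, with r = 0.74 and rho = 0.67 (permutation p of 7.0e-05 and 0.00039, adjusted p of 0.000455 and 0.00253), and r = 0.72 without the 2 farthest libraries. Arntl, which encodes BMAL1, had r = -0.35 (permutation p = 0.104, adjusted p = 0.45). Among 12691 genes outside the set with a mean of at least 1 CPM, those most like Nampt by this r over the 26 libraries were Rhbdd2 (0.78), Usp2 (0.74), Per2 (0.74), Riok2 (0.73) and Wee1 (0.72). The value for Nmrk1 exceeded that of every one of them, but barely so for Rhbdd2 (0.7803 against 0.7777). Under jet lag 4 of 14 listed clock and clock output genes fell and 0 rose, with Per2 at -1.38 (SE 0.28, edgeR adjusted p = 0.0133). Of the 14, 1 had a positive value, Nr1d1, at 0.54 (SE 0.30, edgeR adjusted p = 0.745). Of 6 other listed clock genes 1 rose, Npas2, at 4.30 (SE 0.74, edgeR adjusted p = 0.00371), and 4 of the 6 had positive values. Npas2 was low, at 0 to 0.58 CPM (median 0.0616) under 12:12 and 0.204 to 8.83 CPM (median 0.645) under jet lag. Its fold change thus rests on 12:12 counts near the floor. Arntl, also of these 6, had 2.29 (SE 0.58, edgeR adjusted p = 0.0636) and Clock 0.85 (SE 0.22, edgeR adjusted p = 0.074), and neither passed.

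Between the sexes, over both lightings, 2 of 10 genes passed, where 9.13% of all genes did, 4.67% higher and 4.46% lower in females. Tdo2 was lower in females, from 538 to 1267 CPM (median 845) in 16 females, against 786 to 1585 CPM (median 1200.1) in 10 males. The log2 fold change, female over male, was -0.63 (SE 0.14, edgeR adjusted p = 0.00284), and 15 of 16 females were below the male median. Nmnat3 was higher in females, from 3.11 to 7.33 CPM (median 5.16), against 2.38 to 5.22 CPM (median 3.33) in males. Its log2 fold change was 0.44 (SE 0.13, edgeR adjusted p = 0.0341), with 15 of 16 females at or above the male median. The groups overlapped for both genes.

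**Figure D4:**
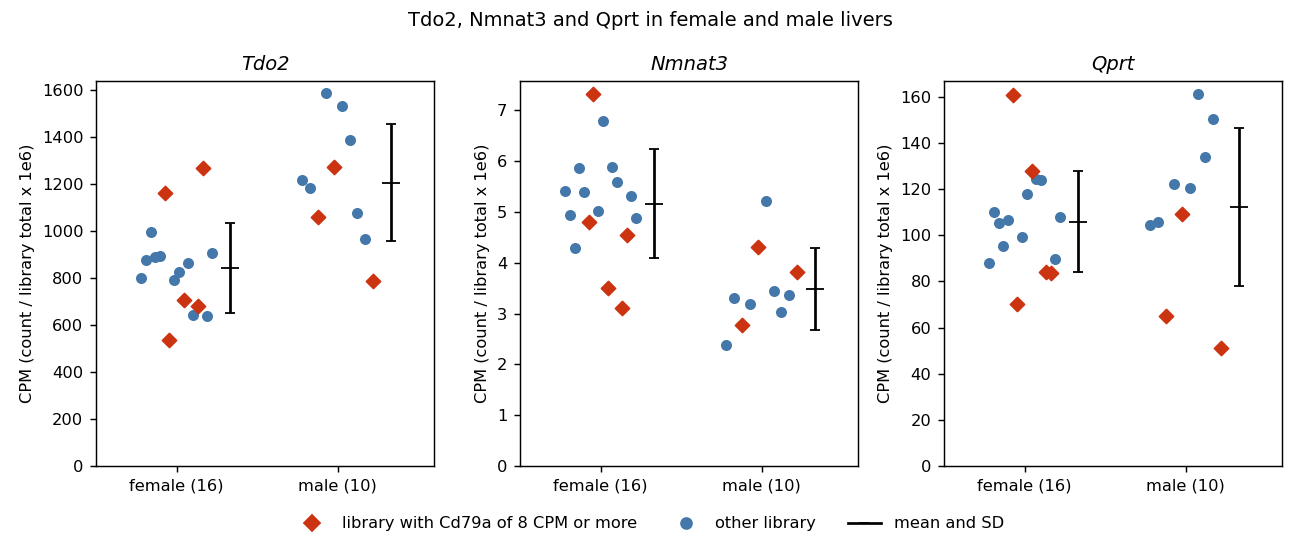
Tdo2, Nmnat3 and Qprt in CPM for each library, 16 females left of 10 males; diamonds are libraries with Cd79a of 8 CPM or more, and bars are the mean and SD. The Tdo2 median was 845 CPM in females and 1200.1 CPM in males.

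The Tdo2 call held in all 26 fits that left out a library (adjusted p from 0.000433 to 0.0087). That of Nmnat3 was lost in 8 of them, without 12:12 females 1 or 4, jet lag female 3, 12:12 males 1, 3 or 4, or jet lag males 5 or 6, with adjusted p up to 0.067. Without the 8 libraries high in Cd79a 3 of 10 genes passed, where 19.4% of all genes did. Tdo2 then changed by -0.74 (edgeR adjusted p = 2.73e-06) and Nmnat3 by 0.52 (edgeR adjusted p = 0.00571). Qprt in these libraries averaged 106 ± 12.5 CPM in 11 females and 128 ± 21.5 CPM in 7 males, a change of -0.40 (SE 0.08, edgeR adjusted p = 0.00135), and over all libraries it had -0.26 (SE 0.17, edgeR adjusted p = 0.387). The other 7 genes did not pass in that fit, with values from -0.26 (Nmnat1) to 0.20 (Nadk). T and NK cell markers moved with sex over all libraries: 4 of 8 rose, and their summed level was 3.25 to 6.71 CPM in females and 1.97 to 3.90 CPM in males. Of the other marker lists, 1 of 5 cholangiocyte genes rose and 1 of 9 hepatocyte genes fell. Without the libraries high in Cd79a, 5 of 8 T and NK cell, 4 of 6 Kupffer cell and macrophage, 2 of 10 B-lineage and 2 of 5 cholangiocyte genes rose, and 2 of 9 hepatocyte genes fell. The part of these cells in the sex differences was not tested. The other 7 genes did not pass over all libraries, with log2 fold changes of -0.19 for Nampt, -0.03 for Nmrk1, -0.19 for Nmnat1, -0.14 for Nadsyn1, 0.15 for Nadk, 0.47 for Nnmt and -0.13 for Sirt1.

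The 8 livers with Cd79a of 8 CPM or more were then set against the other 18, with sex and lighting in the model. These classes come from the counts and are not groups of the study. Here 42.7% of all genes passed, 23.1% higher and 19.6% lower, and 5 of 10 NAD genes passed, 1 higher and 4 lower. That share is near the share over all genes and is no result about the set.

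Nadk was at 140.0, 122, 92.7, 131, 134, 120.0, 131 and 88.4 CPM in the 8 livers high in Cd79a, against 97.5 to 175 CPM (median 141) in the rest. All 8 were below the median of the rest, and the log2 fold change was -0.37 (SE 0.08, edgeR adjusted p = 0.000334). Nmnat1 ran from 4.72 to 11.8 CPM (median 7.74) in the high livers, against 7.62 to 12.4 CPM (median 8.95) in the rest. Its log2 fold change was -0.44 (SE 0.13, edgeR adjusted p = 0.0083), and 6 of 8 high livers were below the median of the rest. The calls of Nadk and Nmnat1 held in all 26 fits that left out a library.

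Qprt ran from 51.3 to 161 CPM (median 83.8) in the high livers, against 88.1 to 161 CPM (median 109) in the rest, with a log2 fold change of -0.44 (SE 0.16, edgeR adjusted p = 0.0266). Nadsyn1 ran from 19.1 to 32.1 CPM (median 25.1) in the high livers, against 22.2 to 31.8 CPM (median 27.0) in the rest, with -0.27 (SE 0.09, edgeR adjusted p = 0.0223). Sirt1 was higher, from 8.10 to 14.8 CPM (median 8.98) in the high livers, against 4.02 to 9.06 CPM (median 7.23) in the rest, with 0.29 (SE 0.11, edgeR adjusted p = 0.038). All 8 high livers were above the Sirt1 median of the rest. Without jet lag male 8, which held the highest Sirt1 and the lowest Nadk, Nmnat1, Qprt and Nadsyn1 of all libraries, 2 of 10 genes passed, Nmnat1 and Nadk. Without jet lag female 5 or 12:12 male 3, 3 passed in each case, and Qprt and Nadsyn1 were lost. The Sirt1 call was lost in 7 of 26 such fits, with adjusted p up to 0.151: without jet lag females 3, 4 or 8, 12:12 females 3 or 7, or jet lag males 6 or 8. The Qprt call was lost in 4, without 12:12 female 7 besides the 3 libraries above, with adjusted p up to 0.102.

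**Figure D5:**
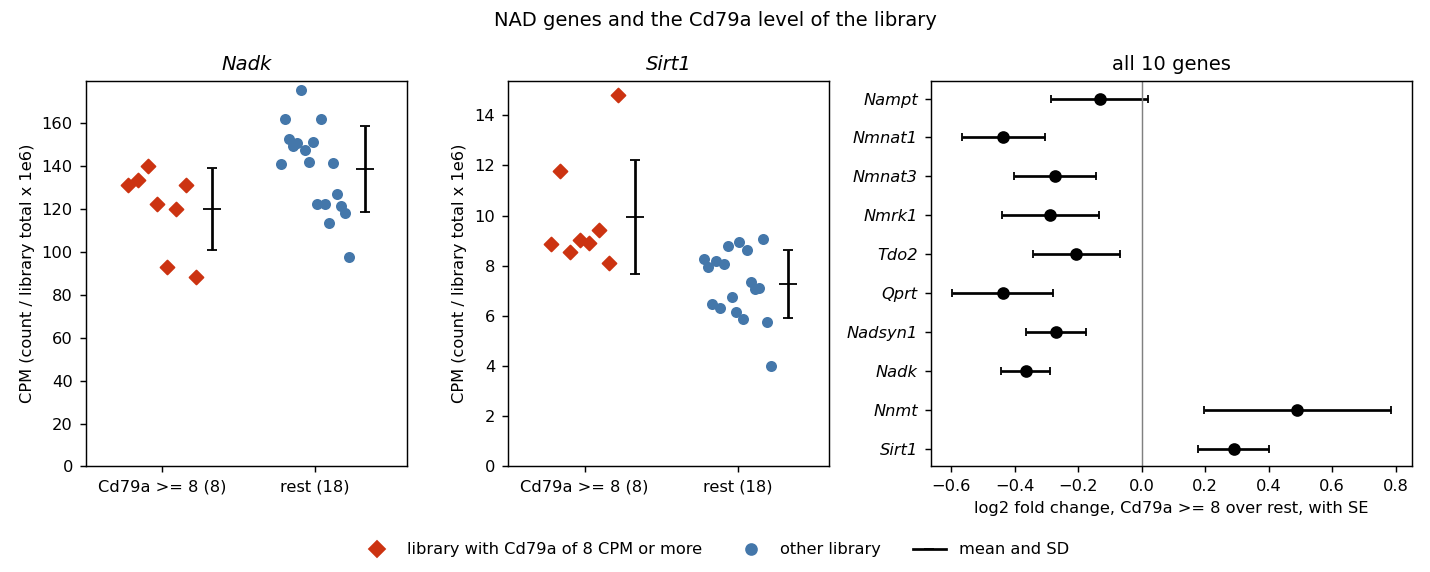
Nadk and Sirt1 in CPM for the 8 livers with Cd79a of 8 CPM or more, left of the other 18, with the mean and SD as bars, and at right the log2 fold change of high over rest with its SE for all 10 genes. Nadk lies lower in the high livers (log2 fold change -0.37) and Sirt1 higher (0.29).

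Nampt and Nmrk1 did not pass in this comparison, with log2 fold changes of -0.13 (SE 0.15, edgeR adjusted p = 0.512) and -0.29 (SE 0.15, edgeR adjusted p = 0.135). Nmnat3 had -0.27 (SE 0.13), Tdo2 -0.21 (SE 0.14) and Nnmt 0.49 (SE 0.29), and none of these passed either. Without 12:12 female 6 the value of Nnmt was 0.02 (SE 0.24). Markers of some other cells moved with the Cd79a level. Of the B-lineage list 10 of 11 tested genes rose, and its summed level was 55.6 to 495 CPM in the high livers and 7.61 to 19.3 CPM in the rest. That list and its sum include Cd79a, which sets the classes, so the rise of Cd79a itself was fixed in advance. All 6 Kupffer cell and macrophage genes rose, with summed levels of 421 to 2080 CPM in the high livers and 217 to 475 CPM in the rest. All 5 tested neutrophil genes rose, with 5.56 to 346 CPM in the high livers and 0.983 to 6.33 CPM in the rest. Of 8 T and NK cell genes 0 rose and 2 fell (median log2 fold change -0.48). Of 5 cholangiocyte genes 0 rose and 0 fell (median log2 fold change -0.24). Of 9 hepatocyte genes 1 rose and 2 fell, and their sum took 16.8% to 25.6% of counts in the high livers and 14.1% to 18.4% in the rest. Most of that sum was albumin, and the other 8 genes took 3.37% to 4.2% in the high livers (median 3.76%) and 3.22% to 4.31% in the rest (median 3.88%). The part of these cells in the differences of the NAD genes was not tested.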

How the data were processed

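RNA of 26 livers had been purified on columns and made into stranded mRNA libraries for DNBSEQ sequencing, per the labels' protocols. The authors deposited an expected count per gene name and library, not normalized. The submitters' processing notes name STAR, DESeq2 and mm10 without versions; the sources used here do not give the counting tool, its annotation or its strand setting. Of the cells of the counts, 45.8% held 0.015, which was read as 0, and 1.44% were not whole (tolerance 1e-06) and were rounded. The 36930 lines hold 36883 names, and lines of one name were summed. The authors also deposited a DESeq2 table of 12:12 over jet lag, per its file headers with a mean normalized signal, a log2 fold change and its SE, a Wald test score and p-values before and after adjustment. Only the log2 fold change and adjusted p-value were used. Totals were 45364557 to 50242019 counts, and no 2 libraries of a group were copies (chi-square per degree of freedom of at least 29.0).

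With R 4.3.3, genes passing filterByExpr of edgeR 4.0.16 (minimum count 10), 16892 in all, were scaled by TMM and fitted with glmQLFit (robust) and glmQLFTest over all 26 libraries. Models were sex plus lighting, lighting within each sex, and sex plus lighting plus Cd79a class, with SE as the log2 fold change over the square root of F. P-values were adjusted by Benjamini and Hochberg over all genes, at a threshold of 0.05. Replicates are separate mice by the labels' titles, and p-values measure the spread between these libraries. Correlations used permutation tests on log2 CPM with a prior count of 2. The fits were tested on simulated counts.

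Alternatives were DESeq2 1.42.0 and its size factors, limma-voom 3.58.1, no filter on low counts, the Cd79a class as a covariate, single-sex fits, a replicate block, other Cd79a limits and leaving out libraries. The 10 genes, the gene lists and the rule for named genes were chosen with earlier results of these data known. All 10 genes are named; of other NAD genes, those past the threshold or up to 4 with the smallest p; and the 5 genes most correlated with Nampt.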

Additional observations from a re-analysis of the deposited data

Results flagged for a closer look

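Of 40 sets of libraries (10 genes in 4 groups), 6 held a highest or lowest library whose gap to its nearest neighbour was large for the group's range by Dixon's criterion, which chance gives in about 1 of 20 sets. Nnmt stood at 321 CPM in 12:12 female 6, where the next female under 12:12 held 84.9 CPM. The same library held Qprt at 161 CPM, with the next at 110.2 CPM. Qprt was low, at 64.9 CPM, in 12:12 male 3, with the next male under 12:12 at 104 CPM. Tdo2 stood at 1267 CPM in jet lag female 6, with the next at 905 CPM. Sirt1 stood at 11.8 CPM in 12:12 female 7, with the next at 8.87 CPM. These 5 flags all fell in libraries with Cd79a of 8 CPM or more. Nmrk1 stood at 17.1 CPM in jet lag female 1, which is low in Cd79a, with the next jet lag female at 10.9 CPM.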

How the results depend on the processing

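Over both sexes, 2 of 10 genes (Nampt and Nmrk1) passed under every alternative tried and in all 26 fits without a library (2 to 2). In females 0 passed, but 1 did with DESeq2 (0 to 0 without a library). In males 1 passed, and 0 did with DESeq2 size factors, with a replicate block or on male libraries only (0 to 1 without a library). The interaction passed 0 to 0. By sex 2 passed, 1 without the filter on low counts (1 to 2 without a library). By Cd79a class 5 passed, 0 with the replicate block and 4 at a Cd79a limit of 16 CPM, where Nadsyn1 was lost (adjusted p = 0.051; 2 to 6 without a library). The sources used here do not say what the replicate numbers mean, and libraries were not treated as pairs in the main fits. Over 10 same-number pairs r of group-centred log2 CPM ran from -0.51 to 0.69, and 1 of 10 libraries correlated best with its own number. Such profiles also vary with the Cd79a class, so these values cannot show whether the numbers mark pairs. With the block the male value of Nampt was -0.95 (edgeR adjusted p = 0.883).

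Some values changed sign. Without the libraries high in Cd79a the lighting value of Nmnat3 was 0.00867 and r of Nampt with Tdo2 was -0.21. With the block the Cd79a value of Nnmt was -0.30, against 0.49 without it. The interaction of Nmrk1 was 0.00901 with DESeq2 size factors, 0.0134 without the filter, 0.00896 with DESeq2, 0.0273 with limma-voom, 0.0366 with the Cd79a class as a covariate, 0.19 without the libraries high in Cd79a, and -0.16 to 0.39 without a library. Without a library, the lighting value of Sirt1 ran from -0.16 to 0.0161 and the sex values from -0.10 to 0.12 for Nmrk1 and from -0.20 to 0.00264 for Sirt1. The causes were not tested.

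Over all genes, lighting passed 132, but 274 with DESeq2, 225 with the class as a covariate and 381 without the libraries high in Cd79a (70 to 244 without a library, the last without jet lag male 8). In females 0 became 55, 8, 13, 19 and 14 with DESeq2, the covariate, without the high libraries, with the block and on females only. In males 2 became 94, 39, 219 and 4 with the first 4 of these, and 0 with DESeq2 size factors or on males only. By sex 1542 became 3188 without the high libraries, and by class 7205 became 1263 with the block. With 4 jet lag males the male lighting values have wider errors than those of females, and Nmnat3 at 2.38 to 7.33 CPM is the gene with the fewest counts.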

Other observations

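Among the 30 other NAD genes tested, 1 was higher and 2 were lower in females than in males, a share near the 9.13% of all genes that passed. Without the libraries high in Cd79a, 2 were higher and 4 lower, where 19.4% of all genes passed. Nt5e, the cell surface nucleotidase, averaged 36.6 ± 15.1 CPM in 16 females and 5.13 ± 4.76 CPM in 10 males, a log2 fold change of 2.65 (SE 0.33, edgeR adjusted p = 4.09e-06). Aox3, one of the aldehyde oxidases that can oxidise methylated nicotinamide, averaged 280 ± 85.6 CPM in females and 664 ± 340 CPM in males, a log2 fold change of -1.37 (SE 0.28, edgeR adjusted p = 0.00235). Its relative Aox1 averaged 59.2 ± 11.7 CPM in females and 108 ± 32.3 CPM in males, with -1.003 (SE 0.17, edgeR adjusted p = 0.000291).

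In the 8 livers with Cd79a of 8 CPM or more, 7 of these 30 genes rose and 15 fell, where 42.7% of all genes passed. The 7 that rose were the NAD glycohydrolases Bst1 (log2 fold change 2.35, SE 0.37) and Cd38 (0.55, SE 0.13), the polymerases Parp1 (0.88, SE 0.12) and Parp2 (0.75, SE 0.13), Acmsd (1.22, SE 0.40), which diverts the tryptophan route away from NAD, Nt5c2 (0.43, SE 0.10), a cytosolic nucleotidase, and Sirt6 (0.45, SE 0.12), a nuclear deacylase. The other polymerases that passed fell, Parp3 (-0.41, SE 0.09), Parp4 (-0.28, SE 0.09) and Parp14 (-0.39, SE 0.14). In tryptophan breakdown Haao (-0.61, SE 0.13), Ido2 (-0.63, SE 0.13) and Kmo (-0.54, SE 0.09) fell. Among the sirtuins Sirt2 (-0.23, SE 0.07), Sirt3 (-0.46, SE 0.09), Sirt4 (-0.54, SE 0.11), Sirt5 (-0.58, SE 0.10) and Sirt7 (-0.30, SE 0.09) fell. Also lower were Naprt (-0.42, SE 0.14), which starts NAD synthesis from nicotinic acid, the mitochondrial NAD kinase Nadk2 (-0.48, SE 0.09), Aox1 (-0.49, SE 0.16) and Aox3 (-1.03, SE 0.24). Acmsd ran from 3.28 to 85.2 CPM (median 9.29) in the high livers, against 3.79 to 11.1 CPM (median 5.77) in the rest. Its highest value was that of a 12:12 female. Under jet lag the Acmsd median was 7.98 CPM in the high livers and 8.91 CPM in the rest. B-lineage, macrophage and neutrophil markers rose in the same livers, and their part in these values was not tested. Over the 18 livers low in Cd79a, Qprt varied against Nampt within groups, with r = -0.66 and rho = -0.73 (permutation p of 0.0129 and 0.00312, adjusted over 13 relations 0.0558 and 0.0195), and r = -0.61 without the 2 farthest libraries; over all 26 libraries r was -0.23 (permutation p = 0.386, adjusted p = 0.85).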
